A study of Mus musculus with 2 samples.

Results

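The genes of the oxidative phosphorylation complexes were described in mIMCD3 cells given FGF23. Members were array genes whose symbols match the nuclear subunit families Nduf (a, b, c, s or v followed by a number), Sdh a to d, Uqcr, Cox 4 to 8 with a letter a to c, and Atp5, with Cox4i1 and Cox4i2 named in addition. This gave 85 genes on 124 probes, of which the patterns matched 83. Of the 85 genes, 80 were measured, against 19220 genes measured in all. The symbols placed 35 genes in complex I, 4 in complex II, 8 in complex III, 17 in complex IV and 16 in complex V. The 16 of complex V include the pseudogene Atp5c1-ps, which also enters that complex's median and counts. Ndufa4, Ndufa4l2, Cox7a2l, Atp5s and Atp5sl were given apart, since Ndufa4 is now placed with complex IV and the last 3 named are not counted as subunits of an enzyme. RefSeq names Atp5f1 as Atp5pb, Atp5s as Dmac2l and Atp5sl as Dmac2.

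mIMCD3 is an established mouse epithelial line from the inner medullary collecting duct, kept in DMEM/F12 medium with serum. Cells cultured with FGF23 at 10 ng/mL for 4 h were compared with cells of the same line cultured without it. FGF23 is a hormone made by bone that acts on the kidney. The study asked which roles it has in tubule cells beyond calcium and phosphate handling. Total RNA of both conditions was hybridised together on each of 2 arrays with the dyes swapped: FGF23 RNA carried Cy3 on array 1 and Cy5 on array 2. All values below are log2 ratios of FGF23 over unstimulated RNA, so 0 means equal signal and a positive value means more with FGF23. Whether each array had its own culture or RNA extract is not stated in the labels. The p-values therefore reflect only spread between these 2 arrays, pooled in large part over all genes, and that spread may be technical.

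Oxidative phosphorylation is the last stage of aerobic energy production in mitochondria. Complexes I and II take electrons from NADH and succinate, complex III passes them on through cytochrome c, and complex IV hands them to oxygen. The protons that complexes I, III and IV pump across the inner membrane drive complex V, the ATP synthase. Most subunits are made from nuclear genes, and a small core set comes from the mitochondrial genome. Tubule cells of the kidney spend much of their ATP on ion transport. Some subunits have forms that replace one another in muscle, testis or low oxygen.

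Each array carried 59305 spots that were not controls, and 48.2% to 55.2% of the spots of a dye were well above background. No spot was saturated. The labelled cell type was checked against 18 collecting duct and epithelial markers, of which 12 were measured, among them Aqp2, Scnn1a, Gata3, Pax2 and Krt8. Avpr2, Hsd11b2, Tfap2b and Elf5 were not well above background on either array in either condition. Of the markers of other cells, 4 of 6 were measured for the proximal tubule, 1 of 5 for the thick ascending limb and distal tubule, 2 of 5 for intercalated cells, 1 of 6 for fibroblasts, 3 of 6 for macrophages, 2 of 5 for endothelium and 4 of 8 for striated muscle. No marker passed the test described below.

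No oxidative phosphorylation gene passed the test in either direction after 4 h of FGF23. In limma's test with Benjamini-Hochberg adjustment over all genes and a threshold of 0.05, 0 of 80 members were higher and 0 were lower. Over all genes the same test called 9 of 19220 higher, or 0.0468%, and 0 lower, or 0%. At an unadjusted limma p under 0.05, 2 members were higher, Ndufv3 and Cox7a2l, and 0 were lower. The same cut took 2.6% of all genes as higher and 1.31% as lower, so the members' count was close to the background. Array signal is RNA per amount labelled, and fewer cells of a type cannot be told apart from less RNA per cell.

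The intervals show how large a change the spread between these 2 arrays left room for. That spread may be technical, so they may not cover differences between cultures. Across the 80 measured members, the mean log2 ratio ran from -0.063 for Cox4i2 to 0.22 for Ndufv3. The 95% intervals of limma had a median half-width of 0.189 on the log2 scale. All 80 intervals lay within a 1.5-fold change in either direction, and 77 of 80 lay within 1.3-fold. In fold terms the lowest bound was 0.820 and the highest 1.32, and 78 of 80 intervals held a log2 ratio of 0. The interval of a gene rests mostly on a spread fitted over all genes, since 2 arrays leave 1 residual degree of freedom.

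**Figure D1:**
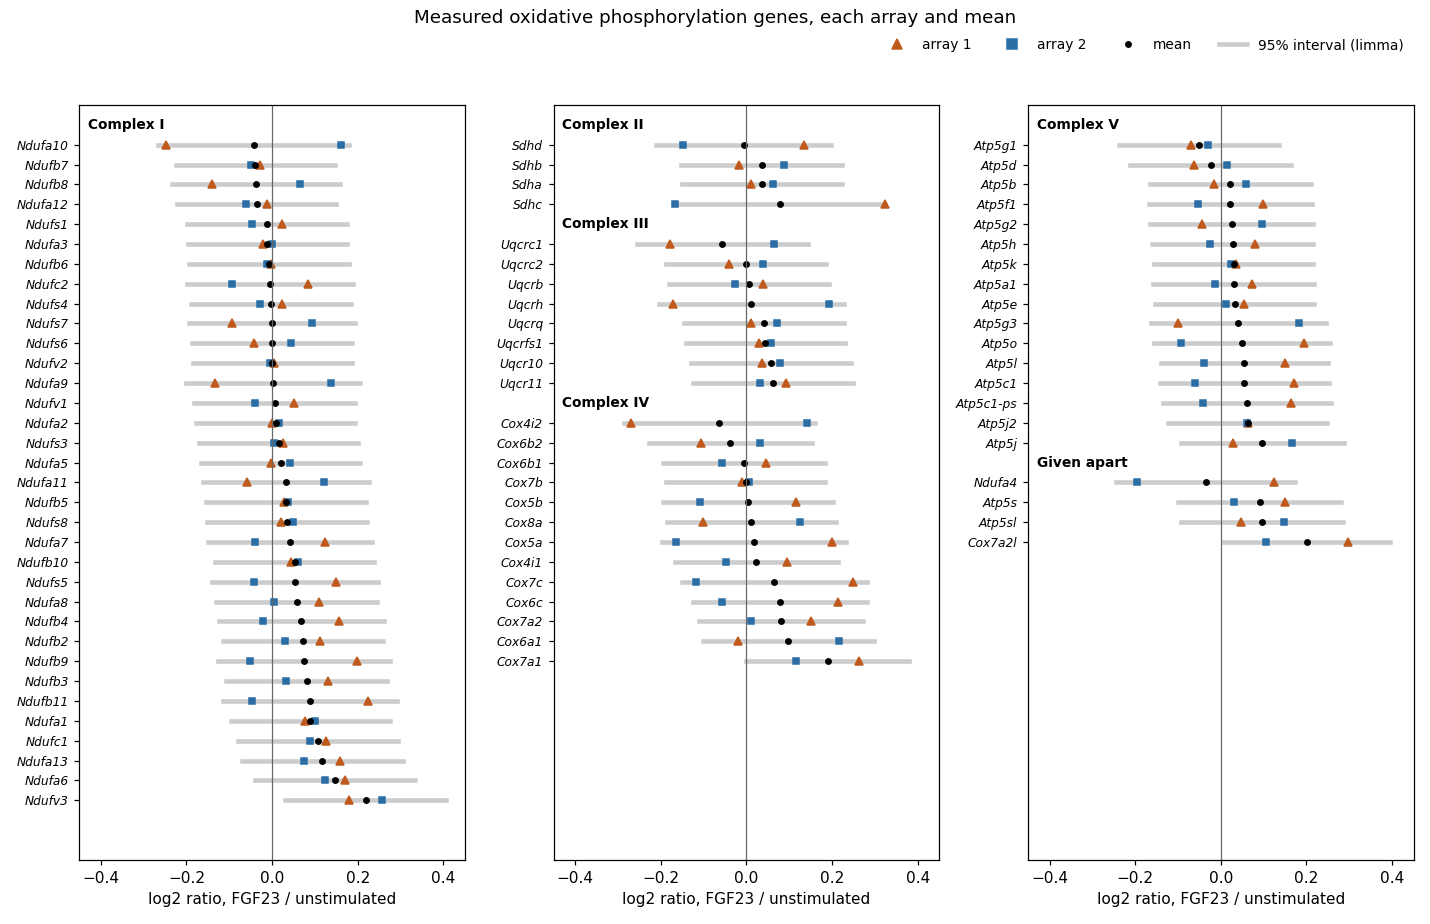
Log2 ratio of FGF23 over unstimulated for 79 of the 80 measured genes, by complex, on array 1 (triangles), on array 2 (squares) and as the mean (dots), with grey bars for the 95% interval of limma. All 79 bars lie within a 1.5-fold change, and 77 of 79 cross 0.

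The members' median log2 ratio was slightly above 0, at 0.031, with 0.045 on array 1 and 0.020 on array 2. Over all genes tested the median was -0.00068, with -0.012 and 0.015 on the arrays. Most members were bright, with a median log2 intensity of 14.0 against 9.21 over all genes. Among the brightest 3844 genes, the median log2 ratio was -0.0031. The mean was above 0 for 58 members and below 0 for 22, against 9540 and 9680 of all genes. With median centring in place of loess, the members' median log2 ratio was 0.0065 and that of all genes -0.015.

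The arrays mostly disagreed in sign. Of the 80 members, 48 had opposite signs on the arrays, 27 were above 0 on both and 5 were below 0 on both. Over all genes, 23.9% were above 0 on both arrays and 22.3% were below 0 on both. Of those brightest 3844 genes, 737 were above 0 on both, 758 were below 0 on both and 2349 had opposite signs. Across the 80 members, the values of array 1 and array 2 were correlated at r = -0.46 (Pearson) and rho = -0.46 (Spearman). Across all genes the Pearson correlation was -0.12. It was not computed for the brightest 3844 genes, so the members' value cannot be called particular to them. These are descriptions across genes, which share 2 hybridisations and are not independent replicates. Because the dyes were swapped, a response to the dye has opposite signs on the arrays and cancels in the mean; its part in these values was not tested. The members' spread was not wide: the median SD between arrays was 0.074 for members and 0.087 for all genes.

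**Figure D2:**
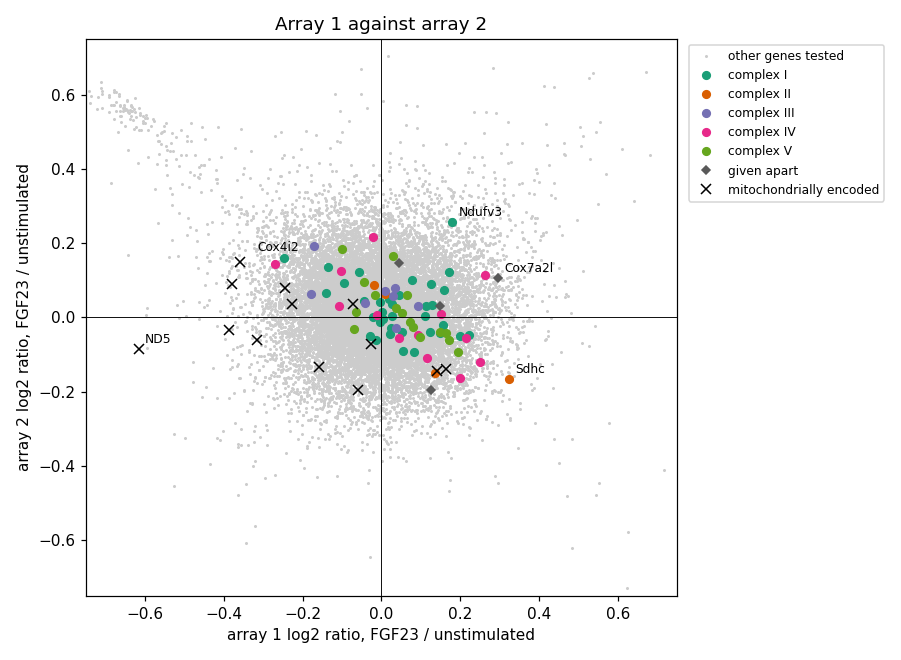
Log2 ratio on array 1 (horizontal) against array 2 (vertical) for all genes tested (grey), the members coloured by complex, and the mitochondrially encoded subunits (crosses). The axes stop at 0.75 in each direction, which leaves out 13 of 19220 genes; 48 of 80 members lie in the 2 quadrants of opposite sign, and Ndufv3 and Cox7a2l lie above 0 on both arrays.

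Compared by complex, the medians were all small and lay close together. The median log2 ratio was 0.020 over the 35 measured genes of complex I, 0.036 over the 4 of complex II and 0.026 over the 8 of complex III. It was 0.018 over the 13 measured genes of complex IV and 0.031 over the 16 of complex V. On array 1 the medians ran from 0.020 in complex III to 0.094 in complex IV. On array 2 they ran from -0.043 in complex II to 0.061 in complex III. The order of the complexes thus differed between arrays, and differences between complexes were given no test. Genes above 0 on both arrays numbered 13 of 35 in complex I, 1 of 4 in complex II, 4 of 8 in complex III, 2 of 13 in complex IV and 4 of 16 in complex V. Genes below 0 on both numbered 4 in complex I, 1 in complex V and 0 in the other complexes.

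**Figure D3:**
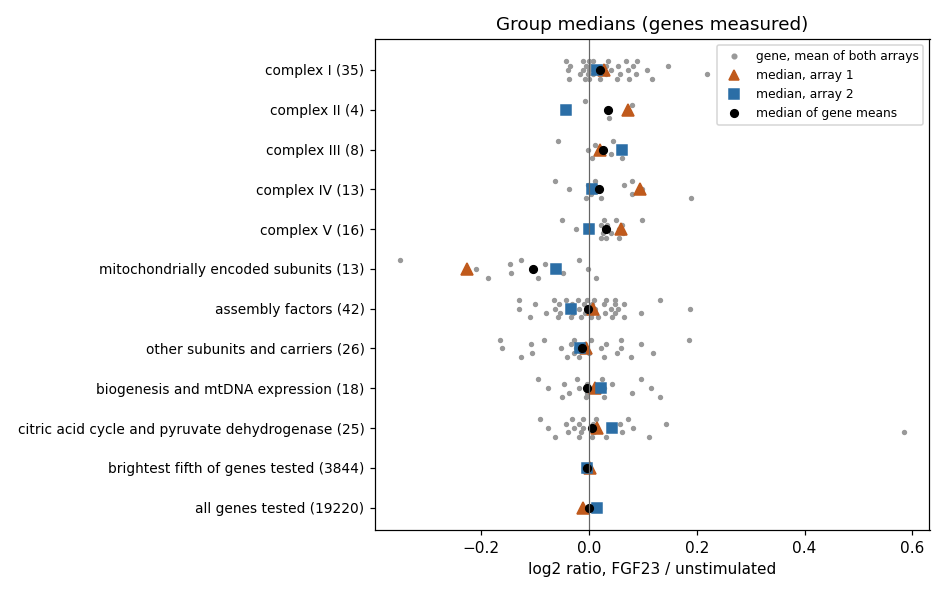
Log2 ratio of FGF23 over unstimulated (horizontal) for the genes of each complex and of related lists (grey dots, mean of both arrays), with the list's median on array 1 (triangle), on array 2 (square) and of the means (black dot). The number of measured genes stands in brackets; the complexes' medians run from 0.018 to 0.036, and that of the mitochondrially encoded subunits is -0.10.

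Complex I, which oxidises NADH, has a catalytic core and a larger set of supernumerary subunits that stabilise it. The 7 nuclear core subunits had a median log2 ratio of 0.00074, and the highest, Ndufs8, had 0.034. The 28 supernumerary subunits had a median of 0.037 and ranged from -0.043 to 0.22. The member with the lowest unadjusted p, Ndufv3, was supernumerary. Ndufv3 is a small subunit of the NADH-binding module. Its log2 ratio was 0.18 on array 1 and 0.26 on array 2. Before background correction, the probe's signal on array 1 was 5142 with FGF23 in Cy3 and 9877 without it in Cy5, and on array 2 it was 12519 with FGF23 in Cy5 and 4722 without it in Cy3. Cy5 signals were the higher on both arrays, which is why ratios were taken only after dye normalization. Both arrays lay above 0, and the mean was 0.22 ± 0.054 (SD, n = 2 arrays), a fold of 1.16 with a 95% interval from 1.02 to 1.32. The limma test gave an unadjusted p of 0.026 and an adjusted p of 1.0.

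The probes of Ndufv3 did not give the same value. The brightest, which stands for the gene, lies on chromosome 17 from 31668209 to 31668268 (mm9). A second probe, from 31665148 to 31665207, had 0.13 on array 1 and 0.16 on array 2. The other, dim probe from 31663758 to 31663817, designed on another transcript, had -0.10 and 0.053. Ndufv3 thereby had the widest range between probes of any member, 0.242, against a median of 0.0262 over the 27 members with more than 1 kept probe. In 20 of these 27 members the probes' means shared 1 sign.

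Ndufa6, a matrix-arm subunit that holds the mitochondrial acyl carrier protein, had log2 ratios of 0.17 on array 1 and 0.12 on array 2. Ndufa13, a membrane-arm subunit also known as GRIM-19, had 0.16 and 0.075. Both genes lay above 0 on both arrays, and neither passed the test (mean 0.15 ± 0.034 for Ndufa6 and 0.12 ± 0.059 for Ndufa13, SD, n = 2 arrays). At the other end, Ndufa10, a matrix-arm subunit with a nucleoside kinase fold, had -0.25 on array 1 and 0.16 on array 2. Ndufb7, a subunit on the side of the intermembrane space, had -0.028 and -0.050. Ndufb8, a membrane-arm subunit, had -0.14 and 0.065. Of these low genes, Ndufb7 alone lay below 0 on both arrays, within an interval from -0.23 to 0.15.

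Complex II, or succinate dehydrogenase, links the citric acid cycle to the chain. Its flavoprotein subunit Sdha had log2 ratios of 0.010 on array 1 and 0.062 on array 2, with a mean of 0.036 ± 0.037 (SD, n = 2 arrays). The iron-sulfur subunit Sdhb had -0.018 and 0.088, and its second probe had -0.080 and 0.098. On the brightest probe of each gene, the membrane anchors Sdhc and Sdhd differed more between arrays than the catalytic pair. Sdhc had 0.32 on array 1 and -0.17 on array 2, with a mean of 0.079 ± 0.35 (SD, n = 2 arrays), the widest SD of any member. A second Sdhc probe had 0.066 and -0.018, so the wide values were those of 1 probe. The second probe of Sdhc thus differed less between arrays than that of Sdhb. Sdhd had 0.14 and -0.15, with a mean of -0.0069 ± 0.20 (SD, n = 2 arrays).

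In complex III the values were small at both ends. Uqcrc1, a core protein of the matrix side, had -0.18 on array 1 and 0.064 on array 2, and its partner Uqcrc2 had -0.041 and 0.038. Uqcrb, a small subunit near the quinone site, had 0.038 and -0.028. The Rieske iron-sulfur protein Uqcrfs1, which carries the electron to cytochrome c1, had 0.030 and 0.058. The small subunits Uqcr10 and Uqcr11 had 0.036 and 0.079, and 0.092 and 0.032. On the brightest probe of each gene, Uqcrfs1, Uqcr10 and Uqcr11 were thus above 0 on both arrays. Their means ran from 0.044 to 0.062, and their intervals all held 0. Of the other Uqcr10 probes, the dimmest had -0.043 on array 1 and 0.13 on array 2, and the brighter had 0.037 and 0.043.

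Complex IV, cytochrome c oxidase, includes the pair whose balance shifts in low oxygen. Cox4i1 is the general form of subunit 4, and Cox4i2 is the form found in lung and raised by low oxygen. Each was read by 1 probe of 60 bases, and the pair of probes shares at most 7 bases in a row. Whether a probe also binds the other isoform's transcript was not tested. A stretch of 30 bases of each probe, as deposited with the arrays, is given because the contrast between the isoforms rests on it. The capitals mark the longest run the pair shares, and positions are those of the whole probe on mm9, on chromosome 8 from 123197924 to 123197983 for Cox4i1 and on chromosome 2 from 152590711 to 152590770 for Cox4i2, both on the plus strand.
Cox4i1: cccattcagggCTTCTCCgccaagtgggac
Cox4i2: gtctccactccCTTCTCCaataaaagcagc

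Cox4i1 had a log2 ratio of 0.094 on array 1 and -0.048 on array 2, with a mean of 0.023 ± 0.10 (SD, n = 2 arrays). Cox4i2 had -0.27 on array 1 and 0.14 on array 2, with a mean of -0.063 ± 0.29 (SD, n = 2 arrays). The arrays disagreed in sign for both isoforms, and in opposite order. Cox4i2 was well above background on both arrays in both conditions. Its signal before background correction was 109 with FGF23 and 237 without on array 1, and 241 and 119 on array 2, so the Cy5 value was about the same in either condition. The 95% interval of Cox4i2 ran from 0.820-fold to 1.12-fold, and that of Cox4i1 from 0.890-fold to 1.16-fold. Cox4i2 was dim, with a log2 intensity of 7.56 against 15.6 for Cox4i1. Its mean log2 ratio was -0.094 with offset 0 and -0.10 with the scanner software's log ratio. The bounds given are those with offset 50. A change of Cox4i2 within those bounds was not detectable with these arrays.

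Ndufa4 and Ndufa4l2 form another pair, of which Ndufa4l2 is induced by low oxygen through the factor HIF-1 and lowers complex I activity. Their probes, shown for the same reason and with the shared run of 7 bases in capitals, lie on chromosome 6 from 11850423 to 11850482 (minus strand) and on chromosome 10 from 126954149 to 126954208 (plus strand) of mm9.
Ndufa4: ccgcACAATTTtccacttaagcaggaaata
Ndufa4l2: gtgggcaaaatACAATTTcatttaacaaat

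Ndufa4l2 was not well above background in either condition on either array. Its signal before background correction was 48.4 with FGF23 and 44.7 without on array 1, and 53.5 and 50.6 on array 2. A change of Ndufa4l2 was thus not measurable with this probe, and no ratio was given. Ndufa4 was well above background throughout, with 0.12 on array 1 and -0.19 on array 2; its mean log2 ratio was -0.035 ± 0.23 (SD, n = 2 arrays).

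In the remaining isoform sets of complex IV, detection separated general from tissue-bound forms only in part. Cox6a2 and Cox8b, the forms of heart and skeletal muscle, and Cox7b2 and Cox8c, known from testis, were not measured. Cox6a2 was well above background in unstimulated RNA on array 1 only. The muscle form Cox7a1 and the testis form Cox6b2 were measured in both conditions on both arrays. Both were dim, at log2 intensities of 8.38 and 6.92, against a median of 14.0 over the members. Their mean log2 ratios were 0.19 and -0.038 with offset 50, and 0.22 and -0.072 with offset 0. Of the general forms, Cox6a1 had log2 ratios of -0.020 on array 1 and 0.22 on array 2, and Cox6b1 had 0.045 and -0.056. Cox7b had -0.0099 and 0.0062, and Cox8a had -0.10 and 0.12. All 4 of these general forms had opposite signs on the arrays.

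Cox6b2 had -0.11 on array 1 and 0.031 on array 2. Cox7a1 had 0.26 and 0.12, above 0 on both arrays, with a mean of 0.19 ± 0.11 (SD, n = 2 arrays) and an unadjusted limma p of 0.052 (adjusted p = 1.0). Its 95% interval ran from 0.999-fold to 1.302-fold. The general form Cox7a2 had 0.15 and 0.0095. Cox7a2l, also called SCAF1, resembles these subunits but joins complex III to complex IV in supercomplexes. It had 0.30 on array 1 and 0.11 on array 2, with a mean of 0.20 ± 0.13 (SD, n = 2 arrays), a fold of 1.15 with a 95% interval from 1.005 to 1.32. Its unadjusted limma p was 0.044 and its adjusted p 1.0. The other probes of Cox7a2l had 0.22 and 0.16, and 0.078 and 0.21, so all 3 lay above 0 on both arrays. At least a pair of them covers overlapping sequence on chromosome 17 (83901272 to 83901331 and 83901291 to 83901350, mm9), so they are not independent measurements.

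**Figure D4:**
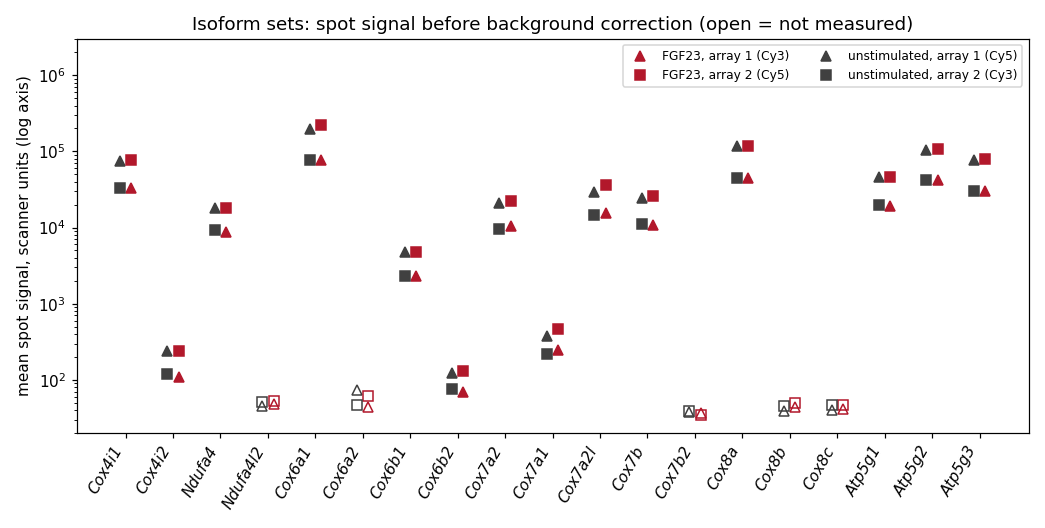
Mean spot signal in scanner units on a log axis, before background correction, for each isoform set with FGF23 (red) and without (grey) on array 1 (triangles) and array 2 (squares); open symbols are genes not measured. Signals of different probes cannot be ranked against each other, and within a probe the Cy5 values lie above the Cy3 values for the measured genes in either condition; Ndufa4l2, Cox6a2, Cox7b2, Cox8b and Cox8c lie near the background.

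In complex V, 3 genes make the same mature c subunit of the proton-driven ring. Atp5g1 had log2 ratios of -0.071 on array 1 and -0.031 on array 2, Atp5g2 had -0.045 and 0.096, and Atp5g3 had -0.10 and 0.18. Atp5g1 was the only member of complex V below 0 on both arrays, and its second probe had -0.091 and -0.085. Its mean of -0.051 ± 0.028 (SD, n = 2 arrays) had an interval from 0.849-fold to 1.099-fold. The catalytic subunit Atp5b had -0.015 and 0.060, and the rotor subunit Atp5d had -0.064 and 0.016. At the upper end, Atp5j, the coupling factor of the stalk, had 0.029 and 0.17, and the membrane subunit Atp5j2 had 0.064 and 0.061. On the brightest probe of each gene, Atp5j2 was the most alike between arrays of the members of complex V, at 0.063 ± 0.0025 (SD, n = 2 arrays). Its second probe had 0.17 on array 1 and -0.061 on array 2, so that likeness was that of 1 probe.

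The pseudogene Atp5c1-ps had 0.16 on array 1 and -0.041 on array 2, next to 0.17 and -0.061 for the brightest probe of the rotor gene Atp5c1. A second Atp5c1 probe had 0.145 on array 1 and 0.068 on array 2. Transcripts of the gene could bind the pseudogene's probe, so its value is uncertain. The brightest Atp5c1 probe and the pseudogene's probe share at most 7 bases in a row, but neither was compared with the other's whole transcript. Of the genes given apart, Atp5s had 0.15 on array 1 and 0.032 on array 2, and Atp5sl had 0.046 and 0.15. Both were above 0 on both arrays and did not pass the test.

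Promoters were compared since the nuclear respiratory factor NRF1 and ETS factors such as GABPA are known regulators of these subunits. RefSeq promoters of GRCm38.p6, from 250 bases before to 50 after each start, were held for 69 of the 85 members. Cox4i1, Cox4i2, Ndufa4l2 and Sdhc were among the 16 members not held. The NRF1 motif GCGCANGCG, searched on both strands, was held by 20 of 69 members or 29%, against 14.3% of the tested genes with a promoter and 6.25% of all 32851 promoters. The ETS motif CCGGAAG was held by 23.2% of members, 19.1% of the tested genes with a promoter and 8.86% of all promoters. The YY1 motif AAGATGGCG was held by 11.6% of members, 3.41% of the tested genes with a promoter and 1.4% of all promoters. The hypoxia response core ACGTG was held by 27.5% of members, 28.6% of the tested genes with a promoter and 19.6% of all promoters. A member or tested gene was counted if any of its promoters matched, whereas the share of all promoters counts single promoters. Of the members' 75 promoters, 28% held the NRF1 motif, 21.3% the ETS motif, 12% the YY1 motif and 28% the hypoxia response core. Such matches describe letters and do not show binding.

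A window of 30 bases around the NRF1 match, in capitals, is given for 4 members from complexes II, IV and V. They were taken from the 20 of 69 members that held the motif, so their sharing it is no result. The selection of members did not use promoters. All are read on the minus strand of GRCm38.p6, upstream of the start, with Sdha at chr13:74350319-74350348, Sdhd at chr9:50603909-50603938, Cox6a1 at chr5:115349101-115349130 and Atp5g2 at chr15:102671070-102671099.
Sdha: cgtttacaggGCGCAGGCGcaccaccactc
Sdhd: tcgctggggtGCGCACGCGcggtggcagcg
Cox6a1: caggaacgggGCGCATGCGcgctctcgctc
Atp5g2: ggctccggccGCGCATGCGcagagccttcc

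Values were also set beside the motifs, with no test. Members with the NRF1 motif had a median log2 ratio of 0.046 and those without it 0.022. The medians were 0.029 with and 0.036 without the ETS motif, and 0.032 on either side for YY1. For ACGTG they were 0.041 with and 0.030 without. The 4 members whose windows are shown had mean log2 ratios of 0.036 for Sdha, -0.0069 for Sdhd, 0.098 for Cox6a1 and 0.026 for Atp5g2, none of which passed the test.

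The 13 subunits encoded by the mitochondrial genome were set beside the nuclear members. All 13 were measured, and none passed the test. Their median log2 ratio was -0.10, with -0.23 on array 1 and -0.061 on array 2, below the nuclear medians of 0.045 and 0.020; this difference between lists was given no test. Of the 13, 0 were above 0 on both arrays, 6 were below 0 on both and 7 had opposite signs. ND5, a proton-pumping subunit of complex I, had -0.61 on array 1 and -0.086 on array 2, with a mean of -0.35 ± 0.37 (SD, n = 2 arrays), an unadjusted limma p of 0.0085 and an adjusted p of 0.92. With an intensity trend and robust prior in limma, ND5 passed at an adjusted p of 0.024. ND4L, another complex I subunit, had -0.39 and -0.034. The larger values thus came from array 1. The array's annotation places the ND3 probe on chromosome 1 and not on the mitochondrial genome, and its values were 0.16 and -0.14.

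Other genes around the chain were described from lists of assembly factors, regulators, carriers and the citric acid cycle. Of 42 measured assembly factors, 0 passed the test and the median log2 ratio was -0.0016. The means largest in size were those of Nubpl, an iron-sulfur protein of complex I assembly, at 0.10 on array 1 and 0.27 on array 2, and Cox20, a complex IV assembly factor, at 0.19 and 0.073. Of 18 measured regulators of mitochondrial biogenesis and mitochondrial DNA expression, 0 passed and the median was -0.0045. Gabpa, the ETS factor of the motif above, had 0.23 and 0.034, and Yy1, the factor of the YY1 motif, had 0.25 and -0.021. Nrf1 itself had -0.17 and 0.017.

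Of 26 measured carriers and subunits outside the selection, 0 passed and the median log2 ratio was -0.013. Among them, Higd1a, a hypoxia-inducible partner of complex IV, had 0.19 on array 1 and 0.18 on array 2, and its unadjusted limma p was 0.0495 (adjusted p = 1.0). Pdss2, an enzyme of coenzyme Q synthesis, had -0.12 and -0.22. Of the 25 genes of the citric acid cycle and pyruvate dehydrogenase, 1 was higher and 0 were lower. This was Pdk1, a kinase that keeps pyruvate out of the citric acid cycle, which rose 1.5-fold with 0.53 on array 1 and 0.64 on array 2 (limma adjusted p = 0.033). The call was lost with the scanner software's log ratio (limma adjusted p = 0.47), with offset 0 (0.16) and with median centring (1.0), where the mean log2 ratio was 0.69, 0.67 and 0.57. The list's median was 0.0053, and the nuclear subunit with the largest mean, Ndufv3, reached 0.22.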

How the data were processed

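The deposited scanner output of both arrays gave mean, background and background-subtracted intensity per spot and dye on the scanner's linear scale. Per the file headers, Feature Extraction 11.5.1.1 wrote them. The authors' deposited files also held the scanner software's log10 ratio of Cy5 over Cy3 and its p-value per spot, and flags for outlier and well-above-background spots. Here mean signals were corrected with normexp (offset 50) and loess-normalized within each array in limma 3.58.1 (R 4.3.3), with control spots at weight 0. Outlier spots were dropped and replicate spots averaged per probe. A probe was kept if, in the FGF23 RNA or in the unstimulated RNA, over 0.5 of its spots exceeded background clearly on each array (the scanner software's flag). This kept 26941 of 55681 probes, and each gene was read from its brightest kept probe. Symbols were updated through RefSeq transcripts of GRCm38.p6 (28026 probes matched, 1651 renamed). A gene could be kept by 1 condition alone, but all 80 measured members carried that flag on each array in both conditions.

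The test was lmFit and eBayes on 2 log2 ratios with no dye term, for which 2 arrays are too few. The shared spread carried 11.9 degrees of freedom. Both arrays shared 1 slide and 1 scan time per the file headers, so no batch could be compared. Precision is limited by the number of arrays. The script was tested on simulated data. Members and lists were chosen with earlier results of these data known. Named members were all isoform sets, the 3 highest and 3 lowest means of each complex (complex II whole) and those at an unadjusted p under 0.05. In a related list they were the genes past the test, or otherwise the 2 with the largest mean in size. Ndufs8, Nrf1, ND3, Atp5c1, Atp5s and Atp5sl are named besides that rule where a description turned on them. Alternatives covered the scanner software's log ratio, offset 0, median centring, the filter on dim probes, averaged probes, another prior and each array alone. Of the measured members, 1 is counted but not reported by name here. Exon and UTR positions of probes were not analysed here.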

Additional observations from a re-analysis of the deposited data

How the results depend on the processing

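No nuclear member passed the test under any setting run with both arrays; 1 array alone allows no test. The count of all genes called higher, 9, was 0 with the scanner software's log ratio and 0 with median centring, 5 with offset 0, 16 with averaged probes and 59 with an intensity trend and robust prior; genes called lower, 0, numbered 1 with averaged probes and 20 with that prior. With median centring the median log2 ratio of all members was 0.0065 and that of complex I -0.0053. On that setting the members' medians were -0.74 on array 1 and 0.76 on array 2, and the median of all genes was -0.015. With each array left out in turn, medians ran from 0.020 to 0.045 over all members, 0.015 to 0.028 in complex I, -0.043 to 0.073 in complex II, 0.020 to 0.061 in complex III, 0.0062 to 0.094 in complex IV and -0.00070 to 0.059 in complex V. The sign turned with median centring for Atp5b (-0.012), Atp5g2 (-0.0057), Cox4i1 (-0.0069), Cox8a (-0.021), Uqcrb (-0.018) and ND3 (-0.017), with averaged probes for Uqcrb (-0.0093) and with the software's log ratio for Cox7b (0.013). The cause was not tested. Over 50 named genes and the settings with both arrays, 342 of 350 values kept their sign; Pdk1 lost its call in 3 settings and ND5 gained one, as given above, and no other call changed. On 1 array alone, 25 of 100 values had the sign opposite to the mean. At an unadjusted p under 0.05, no member was called with offset 0, median centring or the software's log ratio, and 2 or 3 were called in the other settings with both arrays. The mitochondrially encoded median ran from -0.23 to -0.061 with each array left out; the alternatives of the lists, of their genes and of genes named outside the rule were chosen after seeing the data. Each ratio already pairs both RNAs within 1 array. Genes near background, such as Ndufa4l2, have no measured ratio.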
